A study of Mus musculus with 10 samples.

Results

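Secreted modulators of Wnt signalling and a gene of its feedback, 8 genes in all, were followed across 10 arrays of mouse embryonic cells with and without loss of Med23: Sfrp1, Sfrp2, Rspo3, Dkk2, Dkk3, Wnt5a, Axin2 and Wif1. They were chosen by name, as the probe sets that carry 1 of these gene symbols alone, and the names themselves had been picked with results of these arrays in view. This gave 8 of the 18193 named genes and 18 of the 34945 probe sets with a single symbol. Because the levels had served to choose the genes, their values are given as a description, with coefficients and standard errors (SE) but no p-value. Of the 8 genes, 6 stood above the median of all probe sets on at least 1 array. Dkk2 and Wif1 were below that median on all 10.

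The study compared cells with and without Med23, whose product belongs to Mediator, a bridge between transcription factors and RNA polymerase II. Mouse embryonic fibroblasts (MEFs), taken from 9.5-day embryos and left to immortalise on their own, were Med23 knockout (KO) or wild type (WT), each without serum (0 min) and after 30 or 90 min of serum. The other 4 arrays held 10T1/2 cells, an established mouse embryonic mesenchymal line, with MAL overexpression and Med23 knockdown together, with the knockdown alone, with MAL alone, and without either. MAL is a coactivator of the transcription factor SRF. Each condition had 1 array, the 2 MEF genotypes came from separately derived cells, and how many lines or embryos stood behind each genotype, the knockdown reagent and the MAL vector are not given in the sources used here. A difference between genotypes and a difference between cell lines therefore cannot be told apart. In MEFs the spread that the fits use is how the genotype difference varied between serum times. In 10T1/2 cells it is how the difference with 1 treatment varied with the other treatment. Neither is the spread between cultures of 1 condition.

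Wnt ligands are secreted proteins that bind Frizzled receptors together with the coreceptors Lrp5 and Lrp6, or with Ror and Ryk receptors. In the canonical branch this stops the breakdown of beta-catenin, which then acts with TCF/LEF factors on target genes. Secreted proteins tune the signal outside the cell: Sfrp proteins and Wif1 bind Wnt ligands, and the Dickkopf protein Dkk2 acts on Lrp5 and Lrp6. R-spondins raise the number of receptors at the surface through Lgr receptors and the ligases Znrf3 and Rnf43. Axin2 is a target gene of beta-catenin whose product feeds back on the pathway, and in mesenchymal cells canonical Wnt signals are known to hold back fat cell formation.

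The RefSeq promoter table (GRCm38.p6) held a start for 4 of the 8 genes, Sfrp2, Dkk2, Wif1 and Axin2. The 250 bases before that start are shown for Sfrp2, whose level differed most between KO and WT MEFs, for Dkk2, whose window held the most motif matches although its level stayed low, and for Axin2, the textbook target of beta-catenin. They are read 5′ to 3′ on the plus strand at chr3:83766071-83766320, chr3:132085042-132085291 and chr11:108920099-108920348. Capitals mark matches, on either strand, to the TCF/LEF core in its CTTTGA form and its CTTTGT form, the CArG box that SRF binds, the TATA box as TATAAA, the related ATAAAA, the GC box as GGGCGG and the CCAAT box. ATAAAA and the GC and CCAAT boxes were added to the search after the sequences had been seen.
Sfrp2: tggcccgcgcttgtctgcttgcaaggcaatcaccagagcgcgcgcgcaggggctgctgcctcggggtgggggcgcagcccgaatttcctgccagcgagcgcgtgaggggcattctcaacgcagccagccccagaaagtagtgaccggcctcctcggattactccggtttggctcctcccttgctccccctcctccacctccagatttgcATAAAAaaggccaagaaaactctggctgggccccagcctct
Dkk2: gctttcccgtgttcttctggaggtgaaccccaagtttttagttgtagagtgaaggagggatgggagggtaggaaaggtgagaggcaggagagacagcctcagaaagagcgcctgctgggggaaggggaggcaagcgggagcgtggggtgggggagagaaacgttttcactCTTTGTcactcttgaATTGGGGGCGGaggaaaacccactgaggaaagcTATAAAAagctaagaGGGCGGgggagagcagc
Axin2: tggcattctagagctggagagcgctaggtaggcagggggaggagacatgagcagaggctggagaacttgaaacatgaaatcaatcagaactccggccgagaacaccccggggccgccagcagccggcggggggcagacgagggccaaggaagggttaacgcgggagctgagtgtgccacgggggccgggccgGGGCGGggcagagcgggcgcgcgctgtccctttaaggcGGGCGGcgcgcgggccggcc
The Sfrp2 window held a single match, ATAAAA at -41, counted to the first base of the match with -1 as the base just before the start. In Dkk2, CTTTGT stood at -80, TATAAA at -32 with an overlapping ATAAAA at -31, GGGCGG at -60 and -17, and CCAAT, on the minus strand, at -65. Axin2 had GGGCGG at -58 and -20. Wif1 had TATAAA, on the minus strand, at -232 and GGGCGG at -197 and -82. Among all 32851 windows of this length, 13.8% held CTTTGA, 16.5% CTTTGT, 1.47% a CArG box, 12.4% TATAAA, 17.0% ATAAAA, 32.7% GGGCGG and 33.8% CCAAT. The windows of Sfrp2 and Axin2 lay inside the annotated span of their gene, and that of Dkk2 ran into it, from base 132085266 on. The starts used for Sfrp2, Dkk2 and Axin2 are thus not the outermost ones of their genes. Neither TCF/LEF core nor the CArG box occurred in the windows of Sfrp2, Wif1 and Axin2, which says only that these letters are absent there.

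Levels are the authors' log2 values, on which a difference of 1 is a doubling, and the median of all probe sets lay between 3.86 and 3.93 on the MEF arrays and between 3.64 and 3.70 on the 10T1/2 arrays. The files used here give no detection call, so a level below the median of its array is treated as open, and a fold that rests on one is given as "at least", with the low levels raised to that median. Med23 itself in KO MEFs read 3.30 at 0 min, 3.30 at 30 min and 2.91 at 90 min, and in WT MEFs 7.14, 7.39 and 6.90. The 10T1/2 arrays gave Med23 levels of 3.94 with both treatments, 4.24 with the knockdown, 5.67 with MAL and 5.45 in the control. The knockdown thus left a level above the array median, whereas the KO level was below it. Of 7 fibroblast markers, 6 were above the median on all 6 MEF arrays and 7 on all 4 10T1/2 arrays; Thy1 was below it in the MEFs. Their mean level was 10.29 to 10.79 on KO arrays and 10.08 to 10.61 on WT arrays. Of 6 tested, 1 was higher and 3 were lower past the threshold, beside 42.1% of all genes past it. The mean level of 5 macrophage markers was 3.97 to 4.01 on KO arrays and 4.70 to 4.95 on WT arrays. Of 3 tested, 2 were lower past the threshold, and Ptprc and Adgre1 were below the median. The mean of 5 neural markers was 4.88 to 4.99 on KO arrays and 6.0 to 6.40 on WT arrays. Of 4 tested, 1 was higher and 2 were lower, and Tubb3 was below the median. The mean of 5 endothelial markers was 3.55 to 3.72 on KO arrays and 3.19 to 3.31 on WT arrays. Of 2 tested, 1 was higher, and Pecam1, Cdh5 and Tek were below the median. The 5 epithelial markers averaged 3.57 to 3.63 on KO arrays and 3.53 to 3.67 on WT arrays. The 5 skeletal muscle markers averaged 3.56 to 3.65 on KO arrays and 3.60 to 3.72 on WT arrays. Only 1 epithelial and 2 muscle markers were tested, and none passed the threshold. Cdh1, Krt8, Krt18, Krt19, Myod1, Myog and Myh3 were below the median. The part of these marker differences in the results below was not tested, and in bulk RNA fewer cells of a type and less RNA per cell cannot be told apart.

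**Figure D1:**
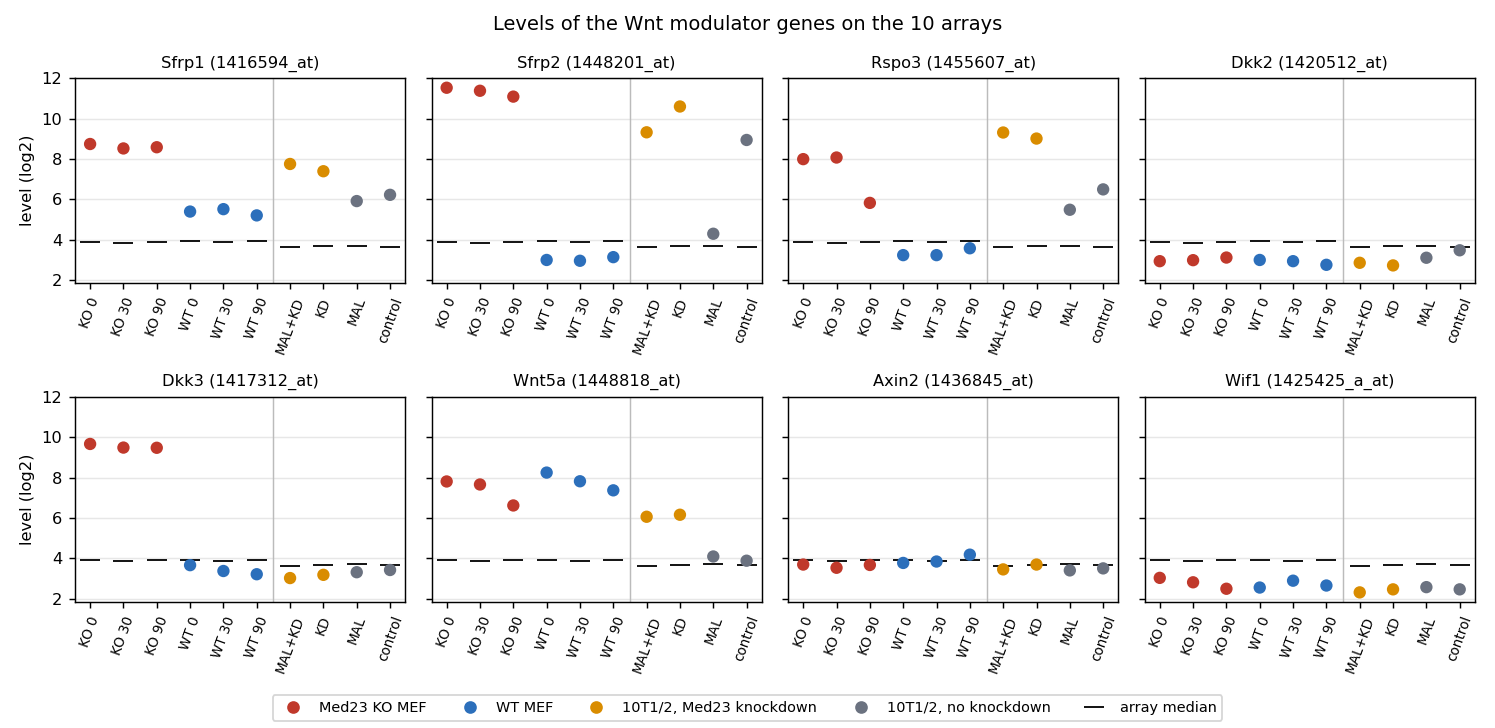
Log2 level (vertical axis) of each of the 8 genes on each of the 10 arrays (horizontal axis), with 1 point per array for the representing probe set and a black tick for the median of all probe sets on that array. Sfrp1, Sfrp2, Rspo3 and Dkk3 stand higher in all 3 KO MEF arrays than in any WT MEF array, whereas Dkk2 and Wif1 lie below the tick on all 10 arrays.

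Of the 8 genes, Sfrp2 and Dkk3 gave the widest differences between KO and WT MEFs. Sfrp2, which binds Wnt ligands through a domain like that of Frizzled, read 11.54, 11.39 and 11.10 in KO MEFs at the successive serum times, against 3.0, 2.96 and 3.14 in WT MEFs (probe set 1448201_at, the only one of this gene). MEF levels are given in the order of 0, 30 and 90 min throughout. All 3 WT levels were below the array median, while the KO levels were all far above it. The means were 11.34 ± 0.22 in KO MEFs and 3.03 ± 0.09 in WT MEFs (SD, n = 3 serum times each). The coefficient of the fit was 8.31 (SE 0.16), and with the WT levels raised to the median Sfrp2 was at least 173-fold higher in KO MEFs.

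In 10T1/2 cells Sfrp2 also stood higher wherever Med23 was knocked down, but from another starting level. It read 9.33 with both treatments and 10.61 with the knockdown alone, against 4.30 with MAL alone and 8.95 in the control. Control 10T1/2 cells thus carried a level far above the array median, where WT MEFs did not. The knockdown difference was 5.03 in the presence of MAL (both treatments minus MAL) and 1.66 without it (knockdown minus control). Read the other way, Sfrp2 was 25.1-fold lower with MAL than in the control, and 2.43-fold lower with both treatments than with the knockdown alone. The additive coefficients were 3.35 for the knockdown and -2.97 for MAL (SE 0.79 each), and these SE, the widest of the 5 genes fitted in 10T1/2 cells, hold the gap between the 2 pairs.

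Sfrp1, the closest relative of Sfrp2 in this set and likewise a Wnt-binding protein, was measured by 5 probe sets. The one with the highest mean, 1416594_at, read 8.75, 8.53 and 8.59 in KO MEFs and 5.40, 5.52 and 5.21 in WT MEFs at 0, 30 and 90 min. In 10T1/2 cells it read 7.76 with both treatments, 7.40 with the knockdown, 5.92 with MAL and 6.23 in the control. All 10 levels were above the array median, so no level of this probe set is open. Sfrp1 was 9.49-fold higher in KO than in WT MEFs (coefficient 3.25, SE 0.14) and 2.84-fold higher with the knockdown (differences of 1.84 with MAL and 1.17 without it).

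The other 4 probe sets of Sfrp1 pointed the same way for Med23 loss but differed in size. Probe set 1428136_at read 9.56, 9.34 and 9.09 in KO MEFs against 4.49, 4.55 and 5.01 in WT MEFs, and 1448395_at read 8.32, 8.15 and 7.84 in KO MEFs against 4.38, 4.38 and 4.34 in WT MEFs. Probe set 1460187_at read 8.89, 8.65 and 8.41 in KO MEFs against 2.61, 3.02 and 2.87 in WT MEFs, all 3 WT levels being below the median. The smallest gap was that of 1438620_x_at, a type of probe set whose probes can match more than 1 transcript, with 6.38, 6.18 and 6.11 in KO MEFs against 5.30, 5.10 and 5.43 in WT MEFs. In folds, the 5 probe sets gave 9.49, 25.0, 13.3, 1.93 and at least 26.7 (1416594_at, 1428136_at, 1448395_at, 1438620_x_at and 1460187_at). The groups did not overlap on any of the 5, and the size of the Sfrp1 difference depended on the probe set.

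The 10T1/2 arrays showed the same spread between Sfrp1 probe sets. With both treatments, the knockdown, MAL and the control, the levels were 8.20, 7.47, 4.57 and 4.95 on 1428136_at and 9.19, 8.32, 4.18 and 5.38 on 1448395_at. They were 6.85, 6.92, 6.16 and 6.16 on 1438620_x_at, and 6.65, 4.85, 2.64 and 3.50 on 1460187_at. Both knockdown arrays lay above both arrays without knockdown on each probe set. The MAL difference carried no single sign: on 1448395_at it was 0.87 with the knockdown present (both treatments minus knockdown) and -1.20 without it (MAL minus control), and on 1416594_at it was 0.36 with the knockdown and -0.31 without it. The same pair of signs stood on 1428136_at, at 0.73 and -0.38, and on 1460187_at, at 1.80 and -0.86, where the MAL and control levels were below the median. On 1438620_x_at the differences were -0.07 and 0.00.

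**Figure D2:**
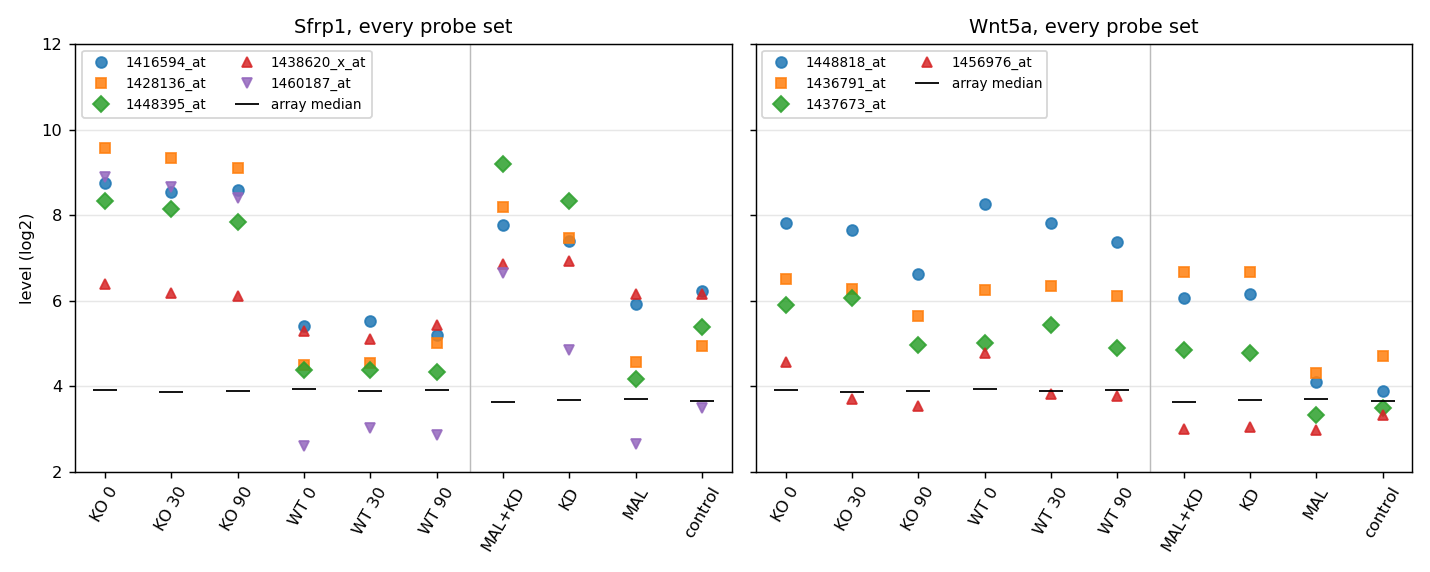
Log2 level (vertical axis) on each of the 10 arrays (horizontal axis) for all 5 probe sets of Sfrp1 (left) and all 4 of Wnt5a (right), with 1 marker shape per probe set and a black tick for the array median. Every Sfrp1 probe set is higher in KO than in WT MEFs, by gaps of different size, and the Wnt5a probe sets are close between KO and WT MEFs while 3 of 4 are higher on the knockdown arrays of 10T1/2 cells.

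Dkk3, a secreted member of the Dickkopf family, differed between the MEF genotypes and was low in all 10T1/2 cells. Probe set 1417312_at read 9.67, 9.49 and 9.48 in KO MEFs at the successive serum times, against 3.66, 3.37 and 3.21 in WT MEFs. In 10T1/2 cells it read 3.02 with both treatments, 3.18 with the knockdown, 3.31 with MAL and 3.42 in the control. All 3 WT MEF levels and all 4 10T1/2 levels were below the array median, so the knockdown differences of -0.29 with MAL and -0.24 without it are between open levels. The means were 9.55 ± 0.11 in KO MEFs and 3.41 ± 0.23 in WT MEFs (SD, n = 3), the coefficient was 6.13 (SE 0.13), and the KO level was at least 49.8-fold higher. The other probe set, 1448669_at, read 8.58, 8.41 and 8.21 in KO MEFs against 3.25, 3.39 and 3.17 in WT MEFs, at least 22.5-fold higher in KO MEFs. On the 10T1/2 arrays it stayed between 3.64 and 3.92.

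Dkk2 and Wif1 gave low levels only. Dkk2, which binds Lrp5 and Lrp6, read 2.94, 2.99 and 3.12 in KO MEFs and 3.0, 2.94 and 2.76 in WT MEFs (1420512_at). On the 10T1/2 arrays Dkk2 read 2.86 with both treatments, 2.73 with the knockdown, 3.11 with MAL and 3.48 in the control. Wif1 read 3.03, 2.81 and 2.49 in KO MEFs and 2.55, 2.89 and 2.65 in WT MEFs, and 2.31, 2.46, 2.57 and 2.46 with both treatments, the knockdown, MAL and the control in 10T1/2 cells (1425425_a_at). All 20 of these levels were below their array's median, and neither gene entered a fit.

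Rspo3 is an R-spondin and so an enhancer of Wnt signals rather than an antagonist, and its level was higher on the same arrays as those of Sfrp1 and Sfrp2. Probe set 1455607_at read 8.0, 8.08 and 5.83 in KO MEFs at the successive serum times, against 3.24, 3.24 and 3.58 in WT MEFs, where all 3 levels were below the median. The KO level at 90 min of serum was 2.17 below that at 0 min, and still 2.25 above the WT level at 90 min. The means were 7.30 ± 1.28 in KO MEFs and 3.35 ± 0.20 in WT MEFs (SD, n = 3), with a coefficient of 3.95 (SE 0.50) and a fold of at least 10.5. Without the 90 min arrays the coefficient was 4.80.

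In 10T1/2 cells Rspo3 read 9.32 with both treatments and 9.02 with the knockdown, against 5.49 with MAL and 6.50 in the control. Every 10T1/2 level was above the array median, the knockdown arrays lay well above the others, and the fold with the knockdown was 9.03 (coefficient 3.17, SE 0.35). The knockdown difference was 3.83 with MAL and 2.52 without it. MAL went with a level 1.01 lower in the absence of the knockdown and 0.30 higher in its presence. The second Rspo3 probe set, 1443187_at, did not show these differences: it read 3.35, 3.36 and 3.28 in KO MEFs, 3.30, 3.34 and 3.08 in WT MEFs, and 3.89, 3.89, 3.53 and 3.79 with both treatments, the knockdown, MAL and the control. Its MEF levels were all below the median, so the Rspo3 difference in MEFs rests on 1 probe set.

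**Figure D3:**
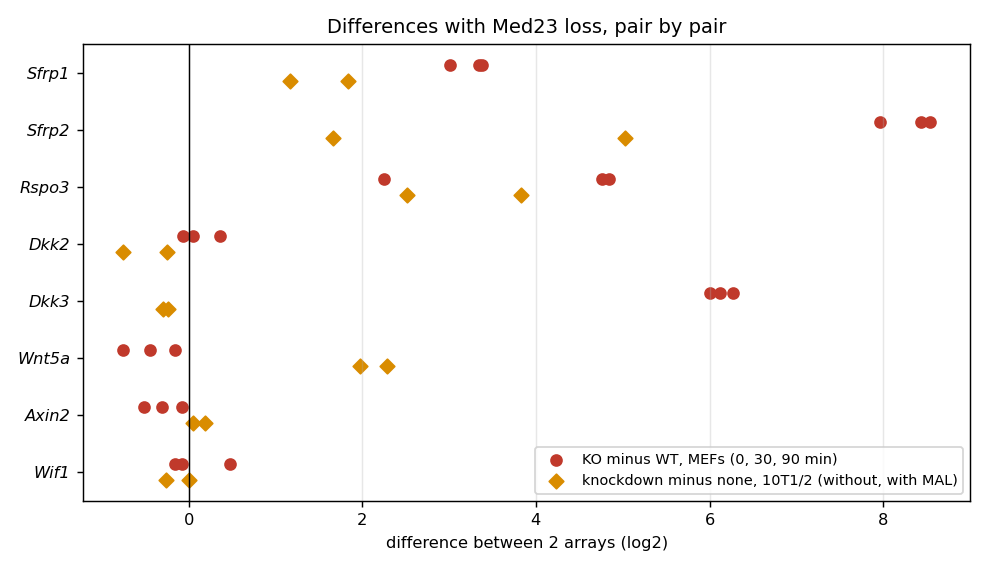
Differences in log2 level with Med23 loss (horizontal axis) for each gene (vertical axis), with red circles for KO minus WT MEFs at the 3 serum times and orange diamonds for knockdown minus no knockdown in 10T1/2 cells with and without MAL. Sfrp1, Sfrp2 and Rspo3 are to the right of 0 in all 5 pairs, Dkk3 only in the 3 MEF pairs and Wnt5a only in the 2 pairs of 10T1/2 arrays.

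The ligand of the set, Wnt5a, known mostly for signals that do not pass through beta-catenin, differed little between the MEF genotypes and more in 10T1/2 cells. Probe set 1448818_at read 7.81, 7.66 and 6.62 in KO MEFs at the successive serum times, against 8.25, 7.82 and 7.37 in WT MEFs, so the groups overlapped. The means were 7.36 ± 0.65 in KO MEFs and 7.81 ± 0.44 in WT MEFs (SD, n = 3), and the coefficient was -0.45 (SE 0.15), with KO below WT at each serum time. The other probe sets did not settle a sign: the mean difference was 0.53 on 1437673_at, -0.08 on 1436791_at and -0.18 on 1456976_at. In 10T1/2 cells 1448818_at read 6.06 with both treatments and 6.16 with the knockdown, against 4.09 with MAL and 3.88 in the control, a 4.36-fold difference (coefficient 2.13, SE 0.20). The knockdown differences were 2.36 with MAL and 1.96 without it on 1436791_at, and 1.51 and 1.27 on 1437673_at. Probe set 1456976_at read 3.0, 3.06, 2.99 and 3.33 with both treatments, the knockdown, MAL and the control, all below the median.

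Axin2, the feedback gene, was near or below the median throughout. Probe set 1436845_at read 3.69, 3.53 and 3.67 in KO MEFs against 3.77, 3.84 and 4.18 in WT MEFs, and 3.45, 3.69, 3.40 and 3.50 with both treatments, the knockdown, MAL and the control in 10T1/2 cells. It was above the array median on 2 of 10 arrays, and its whole range was 0.78. All KO levels were below all WT levels, with a coefficient of -0.30 (SE 0.14), and raising the open levels to the median left -0.11. On the second probe set, 1421341_at, all 10 levels were below the median and the mean KO minus WT difference was 0.12.

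Across the fit of genotype, 6 of the 8 genes were tested, and 4 were higher in KO MEFs past an adjusted p of 0.05 (Sfrp1, Sfrp2, Rspo3 and Dkk3), with 0 lower. Of all 11933 genes tested, 21.2% were higher and 20.8% lower past that threshold, so 42.1% were past it in all. In 4 of the 6 genes all KO levels were above all WT levels, against 20.5% of all genes, and in 1 (Axin2) all were below, against 20.7%. These genes were chosen with such values known, so nothing is read from the counts. In the knockdown fit of 10T1/2 cells 5 genes were tested and none passed, as was so of all 12440 genes by limma (0% called, lowest adjusted p = 0.0689, 3972 genes at an unadjusted p under 0.05). After quantile normalization 2444 of 12403 genes passed for the knockdown, 1350 of them higher and 1094 lower. The higher ones held 4 of the 8 genes (Sfrp1, Sfrp2, Rspo3 and Wnt5a), and nothing is read from this count either. The prior degrees of freedom were 15.5 in that fit and 3.83 in the main fit. Both knockdown levels were above both others in 4 of the 5 genes (Sfrp1, Sfrp2, Rspo3 and Wnt5a), against 19.9% of all genes, and below them in 0, against 28.4%. In the MAL fit 0 of 5 passed, against 0.0643% of all genes (8 genes by limma, of which 6 or 0.0482% higher and 2 or 0.0161% lower, and 3432 at an unadjusted p under 0.05). Both MAL levels were above both others in 0 of 5 genes, against 17.3% of all genes, and below them in 1 (Axin2), against 21.1%. After quantile normalization that MAL count was 1990 of 12403 genes, 1093 higher and 897 lower, and it included Sfrp2.

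Serum left most of the 8 genes without a call. At 30 min against 0 min, 0 of 6 tested genes were past the threshold, against 0.235% of all genes higher and 0.0168% lower (0.251% in either direction, 30 genes by limma, 954 at an unadjusted p under 0.05). At 90 min against 0 min, 1 of 6 was past it and lower (Wnt5a), against 8.95% of all genes lower, 4.56% higher and 13.5% in either direction, and this call was lost when the 30 min arrays were left out. The Wnt5a level at 90 min on 1448818_at was 1.19 below that at 0 min in KO MEFs and 0.88 below it in WT MEFs (coefficient -1.03, SE 0.19). The WT decline depended on the probe set. On 1436791_at the difference was -0.87 in KO and -0.14 in WT MEFs, and on 1437673_at it was -0.92 and -0.12. On 1456976_at it was -1.01 and -1.0, with the 90 min levels below the median. Rspo3 at 90 min differed from 0 min by -2.17 in KO MEFs and by 0.34 in WT MEFs, the WT levels being below the median, and no array repeats either value. Sfrp2 at 90 min differed from 0 min by -0.44 in KO MEFs and 0.14 in WT MEFs, small beside the genotype difference.

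**Figure D4:**
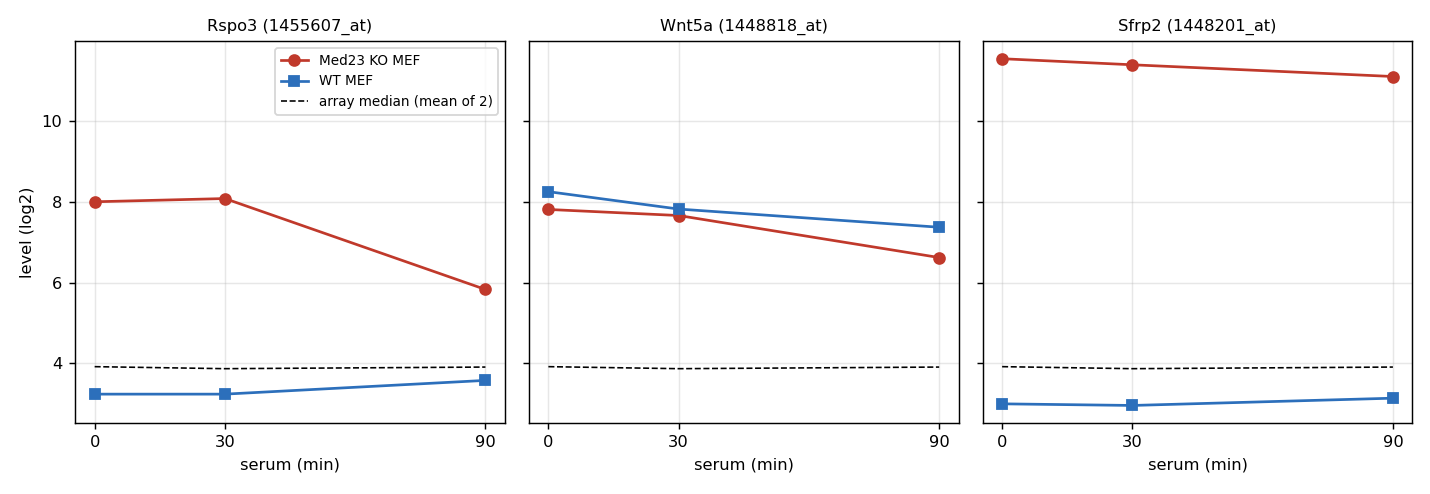
Log2 level (vertical axis) of Rspo3, Wnt5a and Sfrp2 at 0, 30 and 90 min of serum (horizontal axis) in KO (red circles) and WT MEFs (blue squares), 1 array per point, with the array median as a dashed line. Rspo3 in KO MEFs lies at 8.0, 8.08 and 5.83. Wnt5a declines in both genotypes on the probe set shown, and Sfrp2 stays near 11 in KO MEFs and under the median in WT MEFs.

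The surrounding Wnt pathway was described through 79 other genes in 7 lists by role, of which 77 were measured and 55 entered the MEF fits. The lists were chosen with earlier results of these data known, so nothing is read from their counts. Past the threshold, 11 of the 55 were higher and 11 lower in KO MEFs and 33 did not pass, beside 21.2% of all genes higher and 20.8% lower. The median coefficient was -0.03, against -0.02 over all genes. The receptors and coreceptors held the most genes higher in KO MEFs, 7 of 15 tested, with 1 lower and a median of 0.29. Ror1, a receptor for Wnt5a, averaged 6.26 ± 0.19 in KO MEFs and 4.03 ± 0.36 in WT MEFs (coefficient 2.23, SE 0.20, limma adjusted p = 0.000445, 1 WT level below the median). The coreceptor gene Lrp6 averaged 9.95 ± 0.53 in KO MEFs and 7.98 ± 0.11 in WT MEFs (1.97, SE 0.18, limma adjusted p = 0.000487). The Frizzled gene Fzd4 rose by 1.36 (SE 0.16, limma adjusted p = 0.00137), and Fzd5, Ryk, Lrp5 and Fzd2 rose by 0.54 to 0.78. Fzd1 went the other way, with 8.44 ± 0.48 in KO MEFs and 10.81 ± 0.37 in WT MEFs (-2.37, SE 0.30, limma adjusted p = 0.00172).

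Among the genes that make, release or trim the ligands, the largest differences were lower in KO MEFs. The ligand gene Wnt6 averaged 4.69 ± 0.19 in KO MEFs and 8.26 ± 0.33 in WT MEFs, an 11.8-fold fall (-3.56, SE 0.21, limma adjusted p = 8.12e-05). Wnt11 fell by 1.08 (limma adjusted p = 0.0136), and the other 8 ligand genes tested did not pass. Porcn, the enzyme that attaches the lipid that Wnt proteins need for release, averaged 4.43 ± 0.21 in KO MEFs and 7.38 ± 0.37 in WT MEFs, a 7.69-fold fall (limma adjusted p = 4.05e-05). Wls, which carries Wnt proteins to the surface, rose by 0.50 (limma adjusted p = 0.0291). Notum, a secreted enzyme that removes that lipid, averaged 3.91 ± 0.13 in KO MEFs, with 1 level below the median, and 6.89 ± 0.84 in WT MEFs, at least 7.71-fold lower in KO MEFs (limma adjusted p = 0.000664). The other 2 antagonist genes tested did not pass, so 0 of 3 antagonist genes of the list rose.

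The R-spondin receptor gene Lgr4 averaged 9.61 ± 0.41 in KO MEFs and 8.06 ± 0.20 in WT MEFs (1.55, SE 0.15, limma adjusted p = 0.000546), the only 1 of 3 tested genes of its list to pass. Inside the cell, 2 of 15 genes rose and 4 fell, with a median of -0.14. Both that rose encode TCF factors: Tcf7l1 averaged 8.61 ± 0.48 in KO MEFs and 6.53 ± 0.47 in WT MEFs (limma adjusted p = 0.00016), and Tcf7l2 rose by 1.49 (SE 0.15, limma adjusted p = 0.000765). Dvl1 fell by 1.09 and Dvl2 by 0.80, the genes of Dishevelled adaptor proteins, as did Csnk1a1 by 0.49 and Ctnnb1, the beta-catenin gene, by 0.45. Of 7 feedback and target genes tested, 0 rose and 2 fell: Lef1 averaged 5.02 ± 0.53 in KO MEFs and 7.03 ± 0.70 in WT MEFs (limma adjusted p = 0.00035), and Ccnd1, the cyclin D1 gene, averaged 7.90 ± 0.45 in KO MEFs and 10.31 ± 0.20 in WT MEFs (limma adjusted p = 0.000185). Both are known to respond to signals other than Wnt as well.

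**Figure D5:**
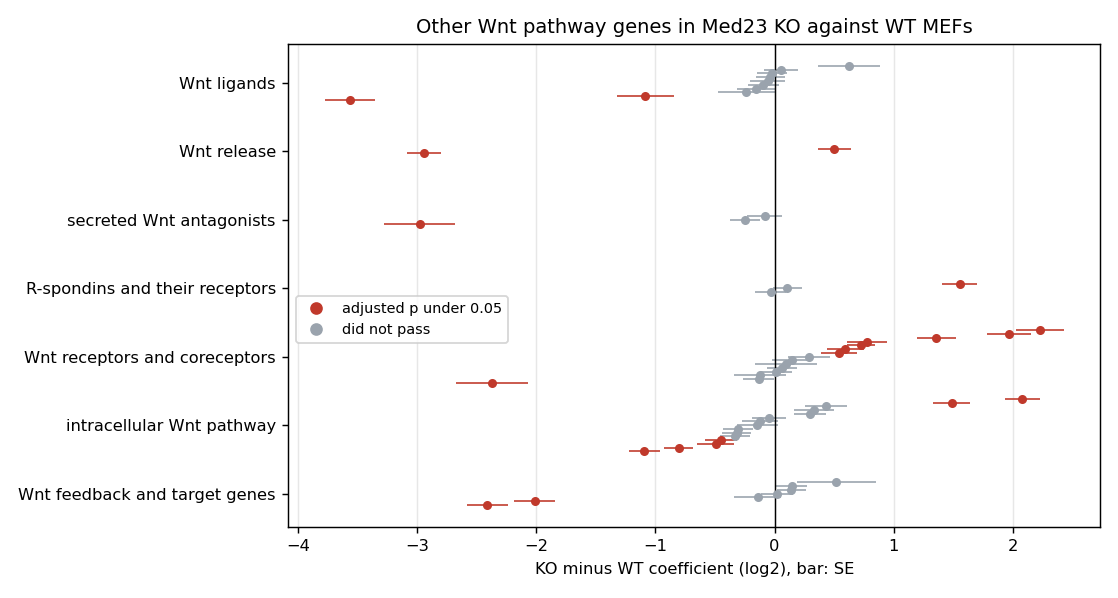
KO minus WT coefficient on the log2 scale (horizontal axis, bars are SE) for the 55 other Wnt pathway genes tested in MEFs, by role (vertical axis), in red where the adjusted p is under 0.05 and grey where it is not. The receptors hold 7 red points to the right of 0, and Wnt6, Porcn and Notum lie furthest to the left in their groups.

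Serum and the 10T1/2 treatments gave fewer calls among the 79 genes. At 30 min of serum 0 of 55 passed. At 90 min Myc, an early gene of growth signals as well as a Wnt target, rose by 1.95 (SE 0.41, limma adjusted p = 0.0307), by 1.81 in KO and 2.09 in WT MEFs. Another 8 of the 55 fell, among them 4 Frizzled genes, beside 8.95% of all genes lower and 4.56% higher. Fzd5 fell by 1.60 (limma adjusted p = 0.00788), Fzd8 fell by 1.47 (limma adjusted p = 0.013) and Fzd2 fell by 1.22 (limma adjusted p = 0.0189). Fzd7, the factor genes Tcf7l2 and Lef1, the R-spondin gene Rspo2 and Bcl9, a partner of beta-catenin, were the others. All 9 of these calls were lost when the 30 min arrays were left out, a setting that keeps the coefficients but calls 18 genes in all. Of the 10T1/2 data, 54 genes were tested and 0 passed for either treatment. The largest knockdown values were those of Fzd5, at 2.01 (SE 0.18), and Fzd4, at 1.89 (SE 0.22), each with an adjusted p of 0.0689 by limma; for MAL they were Fzd9 at -1.57 (limma adjusted p = 0.0651) and Wnt5b at -1.51 (limma adjusted p = 0.0749).

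For each of the 8 genes, the gene with the most similar pattern over the 10 arrays was found among 12447 or 12448 genes by Pearson's r, as a description of arrays that share cell line, genotype and treatment. Sfrp2 was most like Gli2 (r = 0.984), Sfrp1 like Tmtc1 (0.989), Rspo3 like Ppp1r2 (0.973) and Dkk3 like Peg3 (0.999). Peg3, an imprinted gene, read 12.54, 12.38 and 12.10 in KO MEFs against 3.39, 3.32 and 3.30 in WT MEFs, and 3.21 to 3.32 in 10T1/2 cells. Gli2, a transcription factor gene of Hedgehog signalling, read 8.72, 9.09 and 8.34 in KO MEFs against 4.35, 4.20 and 3.94 in WT MEFs, and 8.19, 8.51, 5.46 and 6.89 with both treatments, the knockdown, MAL and the control. Wnt5a was most like Asxl1 (0.988), Axin2 like Csf2 (0.945), Wif1 like Ankrd13d (0.911) and Dkk2 like Itgb3 (0.869), the last 3 from levels mostly below the median. The number of genes this alike varied: 142 genes reached an r of 0.9 with Dkk3, 196 with Wnt5a, 79 with Sfrp1, 56 with Rspo3, 51 with Sfrp2, 24 with Axin2, 1 with Wif1 and 0 with Dkk2.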

How the data were processed

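Total RNA of 10 cultures had been labelled with biotin for Affymetrix arrays, per the labels' protocols. The authors deposited log2 values of 45101 probe sets. Per the submitters' processing notes the tools were RMA and MAS5, with no role or version; joint normalization of both cell lines was not given in the sources used here.

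Symbols came from the platform annotation, updated through gene identifiers to RefSeq (GRCm38.p6), which matched 34741 of the 34945 probe sets with 1 symbol; 932 with several symbols, 9160 with none and 64 controls were left out. A gene was represented by whichever of its probe sets averaged highest. Genes whose highest value exceeded the median of all probe sets (3.90 in MEFs, 3.67 in 10T1/2 cells) were fitted with limma 3.58.1 in R 4.3.3. The code was also run on simulated data with the same spread for every gene. That setting differs from the arrays, so the run does not check the calls given here. The MEF model held genotype and serum time (11933 genes, 2 residual and 4.18 prior degrees of freedom), and the 10T1/2 model MAL and knockdown (12440 genes, 1 residual and 3.83 prior). p-values were two-sided, with Benjamini-Hochberg adjustment over all genes of a comparison and a threshold of 0.05. Arrays have no read depth; precision is limited by their number.

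The 8 genes, the pathway lists and the marker lists were chosen with earlier results of these data known. All 8 genes were named with every probe set. Of the other pathway genes, up to 6 with the largest coefficient in each direction were named if past the threshold and of 1 sign throughout the pairs, or up to 2 as values only where fewer passed, and further called genes were named after their values were seen. Tcf7 and Kremen2 were not analysed here. Alternatives were quantile normalization, no filter, a filter at 6, all probe sets, each serum time left out and no term for serum time. Another was 1 fit over the 10 arrays, also with each 10T1/2 array left out (added after seeing the data). For the 8 genes, each other probe set was read as well, and low levels were raised to the median. The values of the other pathway genes are those of the representing probe set alone.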

Additional observations from a re-analysis of the deposited data

Results flagged for a closer look

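Med23 loss went with opposite signs in the cell lines for 10 of the named genes, in every pair of arrays of the representing probe set: KO minus WT at 3 serum times in MEFs, and knockdown minus no knockdown with and without MAL in 10T1/2 cells. The difference between the lines was not tested. The share of all genes that meet this sign rule is not given here, so nothing is read from the count of 10. The mean difference for Dkk3 was 6.13 in MEFs and -0.27 in 10T1/2 cells, where all 4 levels were below the array median. With low levels raised to the median, the Dkk3 knockdown differences were -0.06 with MAL and 0.02 without it. On probe set 1448669_at of Dkk3 they were -0.20 and 0.10, so no single sign held in 10T1/2 cells. For Wnt5a the mean difference was -0.45 in MEFs and 2.12 in 10T1/2 cells. Probe set 1437673_at of Wnt5a was positive in all 5 pairs, with means of 0.53 in MEFs and 1.39 in 10T1/2 cells. For Axin2, which was near or below the median throughout, it was -0.30 in MEFs and 0.12 in 10T1/2 cells. Probe set 1421341_at of Axin2 had both signs turned, at 0.12 in MEFs and -0.14 in 10T1/2 cells, and with low levels raised to the median Axin2 gave -0.11 in MEFs and -0.015 in 10T1/2 cells. Among the other pathway genes it was 2.08 in MEFs and -0.26 in 10T1/2 cells for Tcf7l1, -2.37 and 0.41 for Fzd1, and -2.01 and 0.21 for Lef1. With MAL present the knockdown difference was only -0.06 for Tcf7l1 and 0.04 for Lef1. The other 4 had smaller mean differences in MEFs. Fzd2 had 0.78 in MEFs and -0.43 in 10T1/2 cells, and Csnk1a1 -0.49 and 0.52. Ctnnb1 had -0.45 and 0.47, and Bcl9 -0.32 and 0.33. Bcl9 read 3.40 with MAL and 3.38 in the control, both below the array median. Its KO difference did not pass (limma adjusted p = 0.0805).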

How the results depend on the processing

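Sfrp1, Sfrp2, Rspo3 and Dkk3 stayed past the threshold for KO against WT in every limma setting, and a filter at 6 added Wnt5a, as lower. With all probe sets, a gene counted if any of its probe sets passed. The Rspo3 difference was 3.95 on its representing probe set and 0.09 on 1443187_at. The 8 genes were chosen with such values known, so nothing is read from their calls in any setting. The counts for the 10T1/2 treatments depended most on the setting. For the knockdown, 0 genes passed, against 2444 of 12403 after quantile normalization and 2658 of 13034 in 1 fit over 10 arrays. These held 11 of 54 and 12 of 60 of the other pathway genes tested, and in both cases 4 of the 8 genes. For MAL, 8 genes passed, against 1990 and 2236 in those settings and 0 with no filter or with all probe sets; the first pair held 15 and 14 pathway genes and in both cases 1 of the 8 genes. For KO, 5018 genes passed, against 8380 with all probe sets, 2857 with no term for serum time and 2398 to 4891 with a serum time left out. These held 22 of the other pathway genes in the main fit, 26 with all probe sets and 15 with no term for serum time. Without the 0, 30 and 90 min arrays they held 15, 18 and 20. For serum at 30 min, 30 genes passed, against 46 with all probe sets, 58 in 1 fit over 10 arrays and 10 without the 90 min arrays. At 90 min, 1612 passed, against 18 without the 30 min arrays, with 0 pathway genes and 0 of the 8 genes left. The causes were not tested. KO and WT arrays were paired by serum time, which the fit held as a term; the labels carry no replicate numbers for a further block. Leaving out a 10T1/2 array leaves no residual degrees of freedom in the fit of those cells, so it was done in 1 fit over both lines, an alternative chosen after seeing the data, in which the remaining 10T1/2 arrays are assumed to vary like the MEF arrays. For the knockdown, 176 genes passed without the array of both treatments or of MAL alone (2 pathway genes and 1 of the 8 genes, Wnt5a), and 1726 to 1729 without that of the knockdown or the control (11 and 4). For MAL, 480 to 1253 genes passed, with 4 to 7 pathway genes and 1 of the 8 genes, Sfrp2. With 1 array per condition, no value has a replicate, and levels below the array median limit Dkk2, Wif1, Axin2 and the WT side of Sfrp2, Rspo3 and Dkk3.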
